A study of Vitis vinifera with 6 samples.

Results

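The DNA transposon families of the grapevine superfamilies CACTA, hAT, Harbinger and Helitron were followed in embryogenic callus (EC) and leaf. They were defined by name, as every row of the count table whose second field gives one of these superfamilies, and the definition uses no measured value. This gave 42 of the 232 transposable element (TE) families in the table, namely 15 CACTA, 15 hAT, 11 Harbinger families and 1 Helitron family. RNA came from 3 EC and 3 leaf samples of Vitis vinifera cv. Chardonnay, with 1 library per sample. EC consists of dividing, unorganised cells from which embryos can be regenerated. It was raised from anthers, grown on solid medium in the dark, and sampled as a pool of 3 Petri dishes. Each leaf sample pooled several young leaves of the vines that had supplied the anthers. Origin (anther or leaf), culture and darkness therefore cannot be told apart. No genotype or agent other than the culture medium differed between the groups.

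DNA transposons move as DNA. CACTA, hAT and Harbinger elements are cut out and reinserted by a transposase that recognises inverted repeats at the ends of the element. CACTA elements, the group of the maize element En/Spm, are named after the bases at their ends. The hAT superfamily includes maize Ac and Ds, and Harbinger is the superfamily to which many of the short MITE elements of plants belong. Helitrons are copied by a rolling-circle mechanism. Plants silence all of them through DNA methylation guided by small RNAs. In the common naming of repeat libraries an N in a family name marks non-autonomous elements, which carry no working transposase gene and depend on the enzyme of a relative. Neither the deposited table nor the study defines the letter, so families are compared below by their names. A family's count sums all its annotated copies, copies inside genes included, so it shows transcripts that contain the family's sequence and does not show transposition. The number and length of the copies were not used, so reads per family are not levels per copy.

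Counted reads per library were 22280342 to 24209752 in EC and 13123072 to 23642329 in leaf, the lowest being leaf replicate 3. The paper lists more sequenced read pairs for leaf replicate 3 than for leaf replicate 2 or EC replicate 2. Its shares of reads mapped and properly paired on the reference genome used were the lowest of the listed RNA-seq libraries. The member families took 47988 to 57763 reads of each EC library and 12669 to 24134 of each leaf library. Leaf replicate 3 stood apart. Over log2 levels of all tested features its Pearson's r was 0.833 and 0.818 with leaf replicates 1 and 2, against 0.993 between those and 0.990 to 0.994 among the EC libraries. The chi-square statistic per feature was 387 and 399.6 for leaf replicate 3 against the other leaf libraries and 10.9 to 23.9 for all other pairs of libraries of equal tissue, so no library repeated another. Its factor from the trimmed mean of M-values (TMM), the scaling used for the tests, was 0.657, against 0.958 and 0.969 for leaf replicates 1 and 2 and 1.15 to 1.19 for EC. Results are therefore also given without it. Levels are counts per 1000000 reads of TMM-scaled library size (CPM). Since tissues were sampled in bulk, fewer cells of a type and less RNA per cell cannot be told apart. The tissue labels were not checked against marker genes, because no table used here pairs the gene identifiers with names.

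Most of the families were higher in EC. After a filter on low counts, 39 of the 42 were tested, and 22 rose and 2 fell in EC. The threshold was an adjusted p of 0.05 from the quasi-likelihood test of edgeR, with Benjamini-Hochberg adjustment over all 21550 genes and TE families that were tested. The called families were 56.4% and 5.13% of those tested, against a background of 24.8% of all features higher in EC and 29.3% higher in leaf. The 22 families had log2 fold changes between 0.52 and 2.05. The median log2 fold change was 0.71 over the 39 families, −0.04 over all features and 0.56 over all 214 tested TE families. In CPM, 26 families had every EC library above every leaf library, and 3 had every EC library below. In the whole table this held for 35.3% and 34.2% of features.

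These counts depended on the libraries and on how they were scaled. With leaf replicate 3 left out, 31 families rose and 4 fell in EC, against 38.5% and 41.3% of all features in that fit. All 22 families of the first fit were among the 31. Leaving out any other library instead gave 9 to 12 families that rose and 1 that fell. The families that rose were 23.1% to 30.8% of those tested, beside 15.04% to 19.6% of all features in the same fits, so calls over the whole table were fewer too. The families that passed in each of these 6 fits were CACTA-3, CACTA-5, CACTA-7, CACTA-13, hAT-10, hAT-12, hAT-VIHAT1, hAT-VIHAT2 and Harbinger-3 among those higher in EC, and CACTA-4 among those lower. Under library sizes alone the median log2 fold change of all features was 0.42, and under TMM factors from TE families alone it was −0.65. The median of the families lay above that of all features by 0.75 under the scaling used here, 0.79 under library sizes alone and 0.80 under the TE factors. In 26 of the 39 families the log2 fold change was above 0 under each of 5 scalings, in 3 it was below 0 under each, and in 10 its sign differed between scalings.

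**Figure D1:**
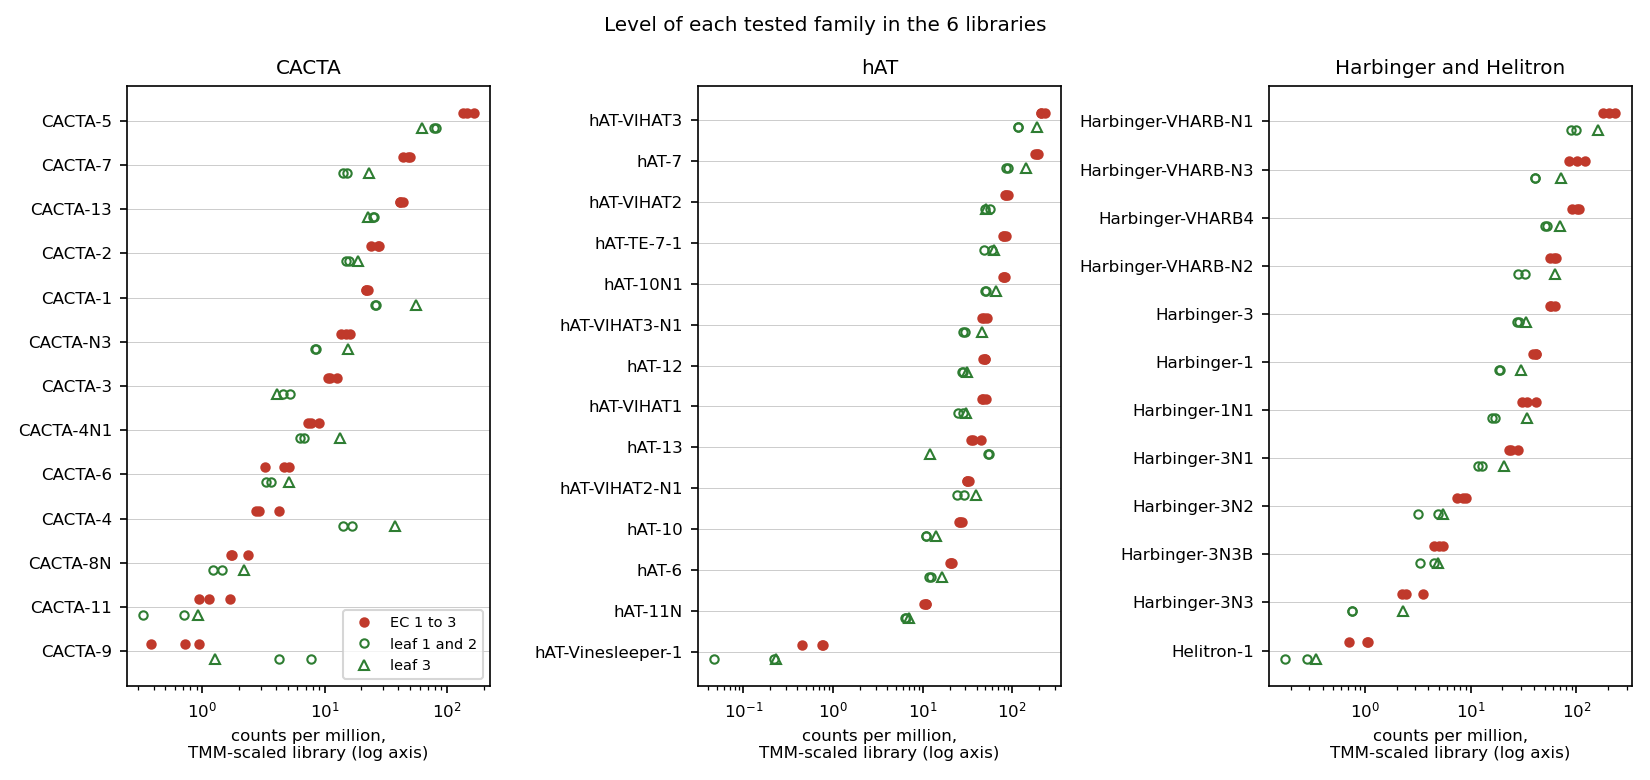
Level of each of the 39 tested families in CPM, on a log axis. Points are single libraries, filled for EC and open for leaf, with leaf replicate 3 as a triangle. Most families lie further right in EC, while CACTA-1, CACTA-4 and CACTA-9 lie further left, and leaf replicate 3 is often the leaf library nearest to EC.

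With all libraries, CACTA families changed in both directions. Of its 15 families 13 were tested, 5 rose (38.5%) and 2 fell (15.4%) in EC, and 6 did not pass. Over all features 24.8% were higher in EC and 29.3% in leaf. CACTA-5 held the most reads of the superfamily in either tissue. It stood at 165, 136 and 146 CPM in EC replicates 1, 2 and 3, against 79.0, 81.7 and 63.1 CPM in leaf replicates 1, 2 and 3. The libraries did not overlap, and the fold was 2.00 (log2 fold change 1.00, standard error 0.16, adjusted p = 0.00445, edgeR). CACTA-7 had the largest rise of the superfamily, with 49.5, 48.3 and 44.2 CPM in EC and 15.4, 14.1 and 22.9 CPM in leaf, a 2.72-fold difference (adjusted p = 0.0037, edgeR). It was the second family by reads in EC and the fifth in leaf. CACTA-3 stood at 11.1, 10.8 and 12.5 CPM in EC and at 5.25, 4.61 and 4.06 CPM in leaf, 2.46-fold higher in EC (adjusted p = 0.00334, edgeR). CACTA-13 had 41.1 to 44.1 CPM in EC and 22.5 to 25.5 CPM in leaf, and was 1.74-fold higher in EC (adjusted p = 0.00366, edgeR). CACTA-2 had 24.2 to 27.9 CPM in EC and 14.97 to 18.8 CPM in leaf (1.60-fold, adjusted p = 0.0138, edgeR), and passed in 3 of the 6 fits with a library left out.

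CACTA-4 ran against most of the other families. Its raw counts were 72, 77 and 122 in EC and 321, 358 and 326 in leaf, although leaf replicate 3 had the fewest counted reads. This gave 2.77, 2.90 and 4.23 CPM in EC and 14.2, 16.9 and 37.8 CPM in leaf. Every EC library lay below every leaf library, and the family was 6.92-fold lower in EC (log2 fold change −2.79, standard error 0.46, adjusted p = 0.00488, edgeR). Without leaf replicate 3 the log2 fold change was −2.21 (adjusted p = 1.04e-04, edgeR). It passed under each of the 5 scalings. CACTA-9 also fell, on fewer reads. It had 10, 25 and 21 counts in EC and 97, 164 and 11 counts in leaf, the 11 being those of leaf replicate 3. Its log2 fold change was −2.70 with a standard error of 0.72 (adjusted p = 0.0239, edgeR), and of the 6 fits with a library left out it passed only without leaf replicate 3, at −3.10. CACTA-1, described after its values were seen, had 21.7, 22.5 and 22.0 CPM in EC and 26.4, 25.9 and 55.4 CPM in leaf. The leaf libraries lay above those of EC, but with all libraries it did not pass (log2 fold change −0.70, adjusted p = 0.125, edgeR). It passed without leaf replicate 3 (−0.23, adjusted p = 0.0266, edgeR) and, with all libraries, under TMM factors from TE families alone (−1.21).

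The make-up of the CACTA reads was compared between the tissues. CACTA-5 took 47.5%, 42.6% and 43.7% of the CACTA reads in EC, against 38.4%, 38.5% and 23.9% in leaf. CACTA-7 took 13.2% to 15.1% in EC and 6.63% to 8.71% in leaf. CACTA-4 took 0.795% to 1.27% in EC and 6.89% to 14.3% in leaf, and CACTA-1 took 6.22% to 7.06% in EC and 12.2% to 21.0% in leaf. In 9 of the 15 CACTA families the shares of the tissues did not overlap, 4 with the larger share in EC and 5 with the larger in leaf. The same counts were 5 and 2 of 15 hAT families, and 1 and 2 of 11 Harbinger families. In CPM, 35.3% of all features had every EC library above every leaf library, and 34.2% every one below. For shares no such background was computed. A share within a superfamily needs no scaling between libraries. A two-sided exact permutation test gave each family with shares apart p = 0.1, the smallest that 3 libraries against 3 allow. After Benjamini-Hochberg adjustment over the 41 families of CACTA, hAT and Harbinger this was 0.216.

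The hAT families that passed with all libraries were all higher in EC. Of 15 families 14 were tested, 10 rose (71.4%), none fell and 4 did not pass, beside 24.8% of all features higher in EC and 29.3% in leaf. In 13 of them the log2 fold change was above 0. At an unadjusted p under 0.05 also 0 were lower in EC, with edgeR, DESeq2 and limma-voom. hAT-VIHAT3 and hAT-7 held the most reads. hAT-VIHAT3 stood at 209.9, 210.1 and 229 CPM in EC and at 115, 115 and 188 CPM in leaf. Its libraries did not overlap, but with leaf replicate 3 close to EC the adjusted p was 0.0689 (edgeR, log2 fold change 0.63), and without that library it was 4.83e-05 (0.93). hAT-7 stood at 187, 181 and 194 CPM in EC and at 89.4, 84.5 and 144 CPM in leaf, 1.77-fold higher in EC (adjusted p = 0.0323, edgeR), and of the fits with a library left out it passed only in that without leaf replicate 3. hAT-10, the largest rise among hAT families with over 100 counts in each library, had 25.6, 26.2 and 27.3 CPM in EC and 10.8, 11.02 and 14.0 CPM in leaf. It was 2.21-fold higher in EC (log2 fold change 1.14, standard error 0.16, adjusted p = 0.00283, edgeR).

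The spreads of hAT-12, hAT-VIHAT2 and hAT-VIHAT1 were narrow in both tissues, with coefficients of variation up to 5.77% in EC and 10.5% in leaf. hAT-12 had 50.1, 47.2 and 49.1 CPM in EC, against 28.1, 27.4 and 30.9 CPM in leaf, a fold of 1.69 (adjusted p = 0.00393, edgeR). hAT-VIHAT2 had 85.05, 89.5 and 83.05 CPM in EC, against 56.4, 49.4 and 51.6 CPM in leaf, a fold of 1.64 (adjusted p = 0.00488, edgeR). hAT-VIHAT1 was 1.73-fold higher in EC (adjusted p = 0.00545, edgeR). hAT-6, hAT-11N, hAT-10N1 and hAT-TE-7-1 rose 1.44-fold to 1.62-fold, with adjusted p-values between 0.0163 and 0.0352 (edgeR). Their coefficients of variation in leaf ran from 6.36% in hAT-11N to 19.2% in hAT-6. They passed without leaf replicate 3 and with no other library left out, and under TMM factors from TE families alone hAT-10N1 and hAT-TE-7-1 had log2 fold changes just below 0 (−0.03 and −0.08). The median coefficient of variation over the tested hAT families was 3.60% in EC and 17.4% in leaf, and over all 39 families it was 7.89% and 28.3%.

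hAT-13, singled out after its values were seen, was the hAT family in which leaf replicate 3 differed most from the other leaf libraries. It stood at 35.0, 36.8 and 45.3 CPM in EC and at 54.4, 53.1 and 12.1 CPM in leaf. With all libraries the log2 fold change was −0.03 (standard error 0.55, adjusted p = 0.964, edgeR), and without leaf replicate 3 it was −0.44 (adjusted p = 0.0124, edgeR), the only hAT family then lower in EC. With all libraries its sign differed between scalings, with a log2 fold change of 0.31 under library sizes alone. With 1 library left out the log2 fold change was above 0 in 4 of the 6 fits (range −0.44 to 0.25). hAT-VIHAT2-N1 had 31.0, 32.8 and 31.6 CPM in EC and 28.7, 24.4 and 39.9 CPM in leaf, and its libraries overlapped (log2 fold change 0.04, adjusted p = 0.884, edgeR).

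Both Vinesleeper families had few reads. They are named after the sleeper genes, of which DAYSLEEPER of Arabidopsis is a gene derived from a hAT transposase. hAT-Vinesleeper-1 had 20, 12 and 22 counts in EC and 5, 1 and 2 in leaf. Its summed counts over TMM-scaled library sizes were 4.35-fold higher in EC, with a 95% exact interval of 2.06 to 10.6 that covers counting error only (log2 fold change 2.05, standard error 0.58, adjusted p = 0.0283, edgeR). It passed in 1 of the 6 fits with a library left out. hAT-Vinesleeper-2 had 2, 3 and 1 counts in EC and 0 in each leaf library, and was not tested. A count of 3 corresponds to 0.104 to 0.115 CPM in EC and 0.132 to 0.348 CPM in leaf, so a difference at this level was not detectable.

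All 11 Harbinger families were tested and all had a log2 fold change above 0, of which 6 rose (54.55%) and 5 did not pass. Over all features 24.8% were higher in EC. Harbinger-VHARB-N1 held 30.2% to 33.0% of the Harbinger reads in EC and 30.8% to 32.3% in leaf, and these shares overlapped. It stood at 178, 204 and 234 CPM in EC and at 89.3, 99.4 and 160.3 CPM in leaf, 1.77-fold higher in EC (adjusted p = 0.0471, edgeR). It passed in 1 of the 6 fits with a library left out, that without leaf replicate 3. Harbinger-VHARB-N3 had 85.1, 101 and 119 CPM in EC and 40.7, 41.0 and 71.7 CPM in leaf, a fold of 2.00 (adjusted p = 0.0296, edgeR). Harbinger-VHARB4 had 91.1, 100.4 and 107 CPM in EC and 50.1, 52.8 and 70.6 CPM in leaf, a fold of 1.72 (adjusted p = 0.0136, edgeR). Harbinger-3 had the lowest coefficient of variation in leaf of the Harbinger families, 10.6%, with 63.0, 56.0 and 57.0 CPM in EC and 27.4, 28.4 and 33.3 CPM in leaf (log2 fold change 0.99, standard error 0.14, adjusted p = 0.00267, edgeR). Harbinger-1 and Harbinger-3N2 were 1.81-fold and 1.85-fold higher in EC (adjusted p = 0.0215 and 0.0345, edgeR). With a library left out, Harbinger-1, Harbinger-3N2 and Harbinger-VHARB-N3 also passed only without leaf replicate 3, and Harbinger-3 passed each time. In 8 of the 11 families the share of Harbinger reads overlapped between the tissues.

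The Helitron family, Helitron-1, had few reads. Its counts were 28, 19 and 30 in EC and 4, 6 and 3 in leaf, which is 1.08, 0.715 and 1.04 CPM in EC and 0.177, 0.282 and 0.348 CPM in leaf. The libraries did not overlap. Over summed counts it was 3.82-fold higher in EC, with a 95% exact interval of 2.11 to 7.50 for counting error (log2 fold change 1.86, standard error 0.38, adjusted p = 0.00893, edgeR), and it did not pass without EC replicate 3. CACTA-10, with 0 to 14 counts per library, and CACTA-12, with 0 to 6, were not tested, and their libraries overlapped. No family was without a count.

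**Figure D2:**
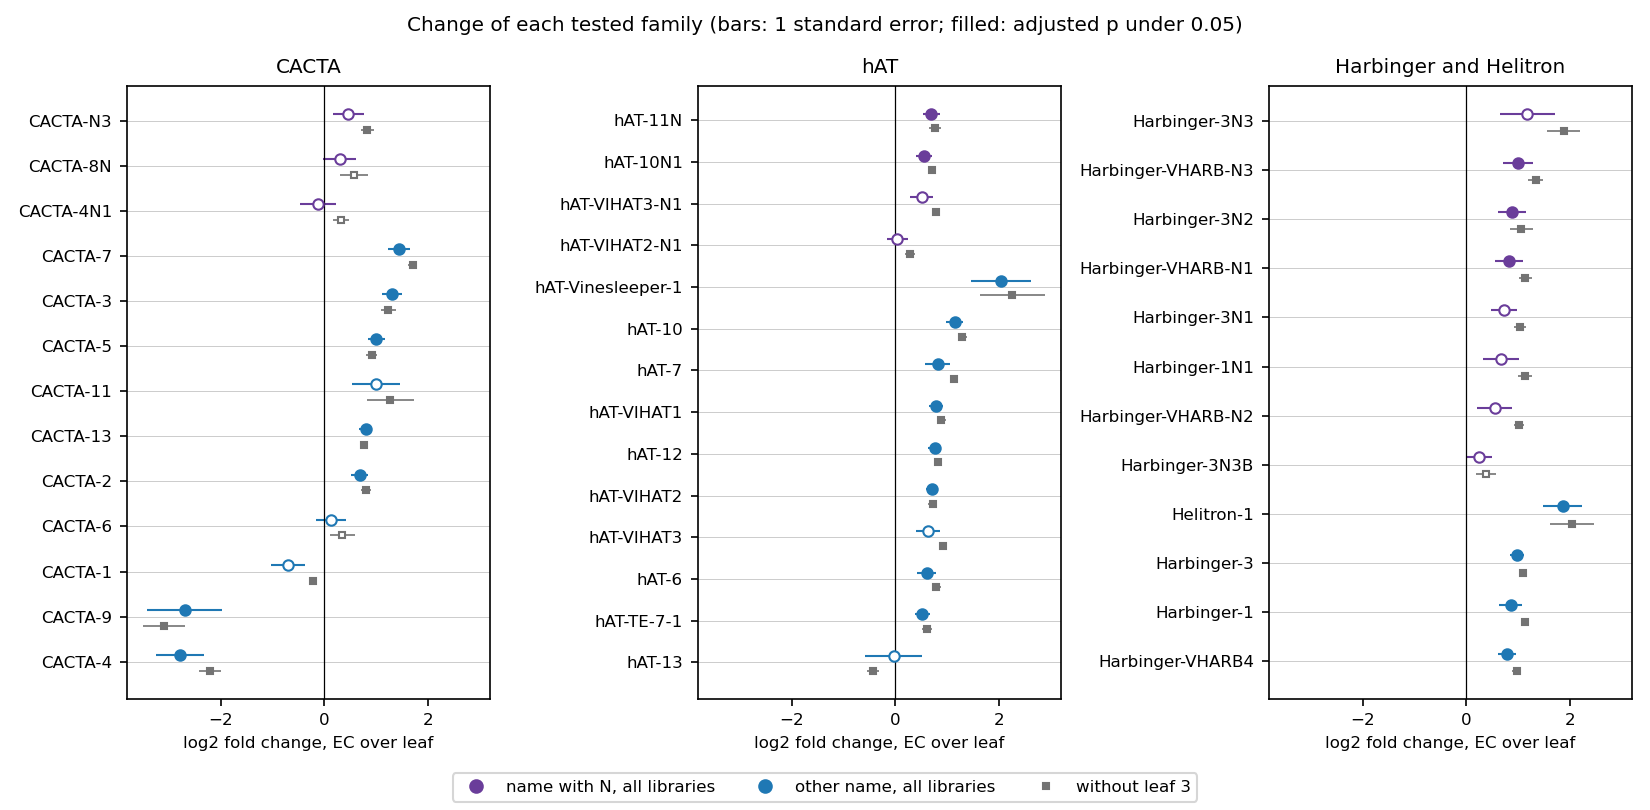
Log2 fold change of EC over leaf for the 39 tested families, with 1 standard error. Circles use all libraries, in purple for names with N and in blue for the others, grey squares leave out leaf replicate 3, and filled symbols have an adjusted p under 0.05. Of the names with N 5 of 15 circles are filled, and 12 of 15 squares.

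Of the 42 families 15 carried an N in the name, 3 in CACTA, 4 in hAT and 8 in Harbinger, and 27 did not. With all libraries, 5 of the 15 N families (33.3%) rose and none fell, while of the 24 tested families without N 17 rose (70.8%) and 2 fell. Over all features 24.8% were higher in EC, so the share of N families called was near the background. The median log2 fold change was 0.55 for N families and 0.79 for the others. Without leaf replicate 3 the counts were 12 of 15 (80.0%) and 19 of 24 (79.2%), beside 38.5% of all features, and the medians 0.83 and 0.90. With any other library left out, none of the N families passed and 9 to 12 of the others did (edgeR). Of all features, 15.04% to 19.6% were called higher in EC in the same fits. In those 5 fits 3 to 5 N families had an unadjusted p under 0.05. With all libraries DESeq2 called 6 N families and 17 of the others higher in EC, and limma-voom 8 and 18. For these counts no share over all features is given. The lower share of N families called higher in EC with all libraries was thus not seen without leaf replicate 3. In that fit 0 of the 15 N families and 4 of the 24 others (16.7%) were higher in leaf, beside 41.3% of all features. In CPM leaf replicate 3 was the highest leaf library in all 15 N families and in 18 of the 24 others. It was so in all 11 Harbinger families, with or without N, in 80.4% of tested TE families and in 45.0% of all features. The level of leaf replicate 3 over the mean of leaf replicates 1 and 2 had a median of 1.67 in N families and 1.33 in the others. This median was 1.61 in all tested TE families and 0.968 in all features. Over counted reads without TMM factors these ratios were 1.14, 0.906, 1.10 and 0.660.

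Shares within a library do not depend on scaling. N families took 31.6%, 33.9% and 35.4% of the reads of the 4 superfamilies in EC replicates 1, 2 and 3, against 30.5%, 31.8% and 37.6% in leaf (two-sided exact permutation test, p = 1.0). The mean difference, 0.32 percentage points, was below the spread between libraries and changed sign with some libraries left out. In Harbinger the N families held most reads, 66.7% to 71.1% in EC and 66.9% to 73.1% in leaf (p = 0.9, exact permutation test). In CACTA they held 6.67% to 8.08% in EC and 7.71% to 11.8% in leaf (p = 0.4, exact permutation test). In hAT the tissues did not overlap. N families took 18.4% (95% Wilson interval 17.9% to 18.9%), 18.8% (18.3% to 19.3%) and 18.6% (18.1% to 19.0%) of hAT reads in EC, against 20.1% (19.4% to 20.8%), 20.4% (19.7% to 21.2%) and 22.3% (21.2% to 23.3%) in leaf. The share was 18.6 ± 0.162% in EC and 20.9 ± 1.16% in leaf (SD, n = 3 libraries each; p = 0.1, exact permutation test, the smallest possible; 0.4 after Benjamini-Hochberg adjustment over 4 comparisons). These intervals cover counting error only and take the reads of a library as independent draws. Reads of 1 library are not independent molecules, so the intervals may be too narrow. Without leaf replicate 3 the difference was −1.68 percentage points, against −2.34 with it.

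**Figure D3:**
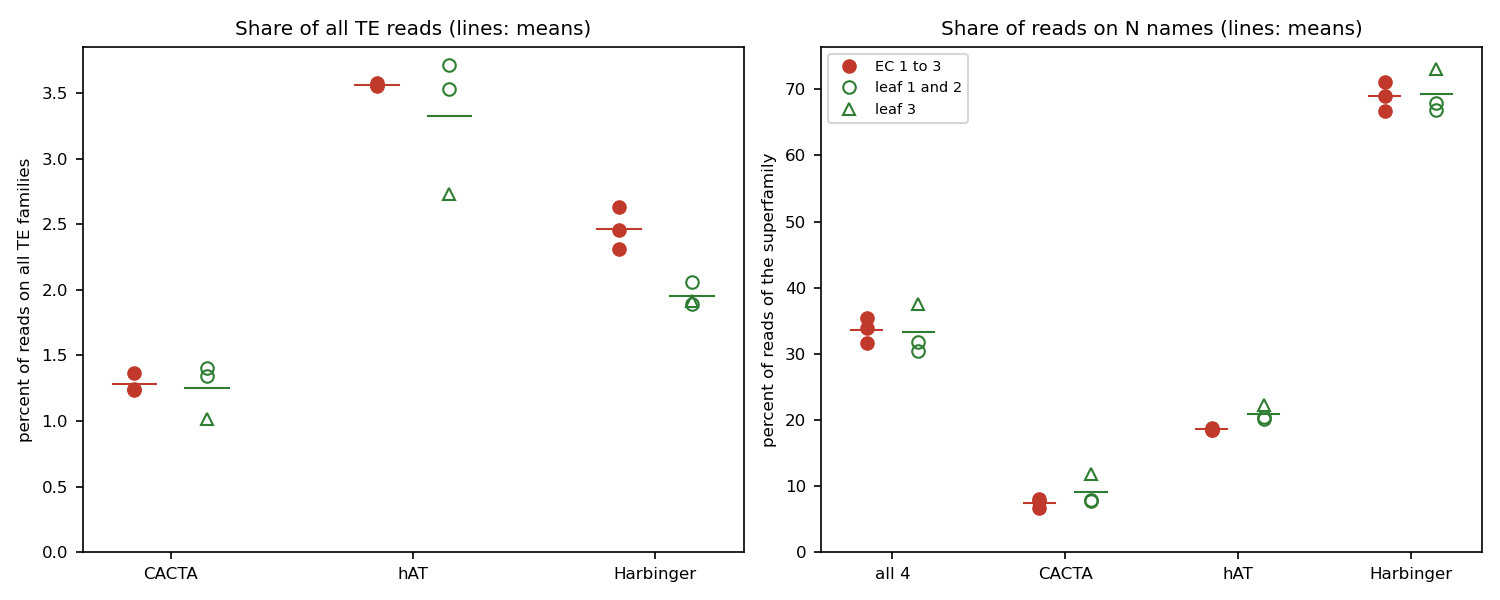
Left, the percent of all TE reads on CACTA, hAT and Harbinger. Right, the percent of reads on families with N in the name, over the 4 superfamilies and within 3 of them. Points are libraries, filled for EC and open for leaf, with leaf replicate 3 as a triangle, and lines are means. The tissues are apart for Harbinger on the left and for hAT on the right.

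Some names share a root, such as CACTA-4 and CACTA-4N1. There were 6 such roots with 9 N families and 6 others, and the ratio of reads on the N names to reads on the other name was taken within each library. Families with a common root may share sequence, and the counting divides reads that map to several families among them, so the members of a root are not separate measurements. For CACTA-4 the ratio of CACTA-4N1 to CACTA-4 was 2.64, 3.13 and 1.84 in EC and 0.445, 0.399 and 0.353 in leaf, so the N family had more reads than its namesake in EC and fewer in leaf. The log2 ratio was 1.31 ± 0.39 in EC and −1.33 ± 0.17 in leaf (SD, n = 3). CACTA-4N1 itself had 7.31, 9.07 and 7.76 CPM in EC and 6.31, 6.73 and 13.3 CPM in leaf. Its log2 fold change was −0.12 (standard error 0.35, adjusted p = 0.789, edgeR), with a sign that was positive under library sizes alone and without leaf replicate 3.

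In hAT the ratio moved the other way for each of 3 roots. Reads on hAT-10N1 per read on hAT-10 were 3.11, 3.06 and 3.06 in EC and 4.65, 4.57 and 4.64 in leaf. The 95% intervals from counting ran from 2.81 to 3.40 over the EC libraries and from 3.82 to 5.65 over the leaf libraries, and leaf replicate 3 lay between the other leaf libraries. The difference in log2 ratio was −0.59, beside standard deviations of 0.01 in each tissue (n = 3 each). For hAT-VIHAT2 the ratio was 0.365, 0.367 and 0.380 in EC and 0.509, 0.494 and 0.773 in leaf, the 0.773 being leaf replicate 3. The difference in log2 ratio was −0.64, and −0.44 without that library. For hAT-VIHAT3 the tissues were close but apart, with 0.221, 0.230 and 0.226 in EC and 0.256, 0.243 and 0.242 in leaf (difference −0.13). Here the 95% intervals from counting overlapped, running from 0.208 to 0.245 over the EC libraries and from 0.217 to 0.279 over the leaf libraries. For Harbinger-1 the ratio was 0.739 to 0.991 in EC and 0.832 to 1.14 in leaf, and for the 4 N families of Harbinger-3 together it was 0.589 to 0.804 in EC and 0.700 to 1.00 in leaf, so the tissues overlapped in both. Two-sided exact permutation tests gave p = 0.1 for CACTA-4 and the 3 hAT roots (0.15 after Benjamini-Hochberg adjustment over 6 roots), 0.5 for Harbinger-1 and 0.4 for Harbinger-3.

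**Figure D4:**
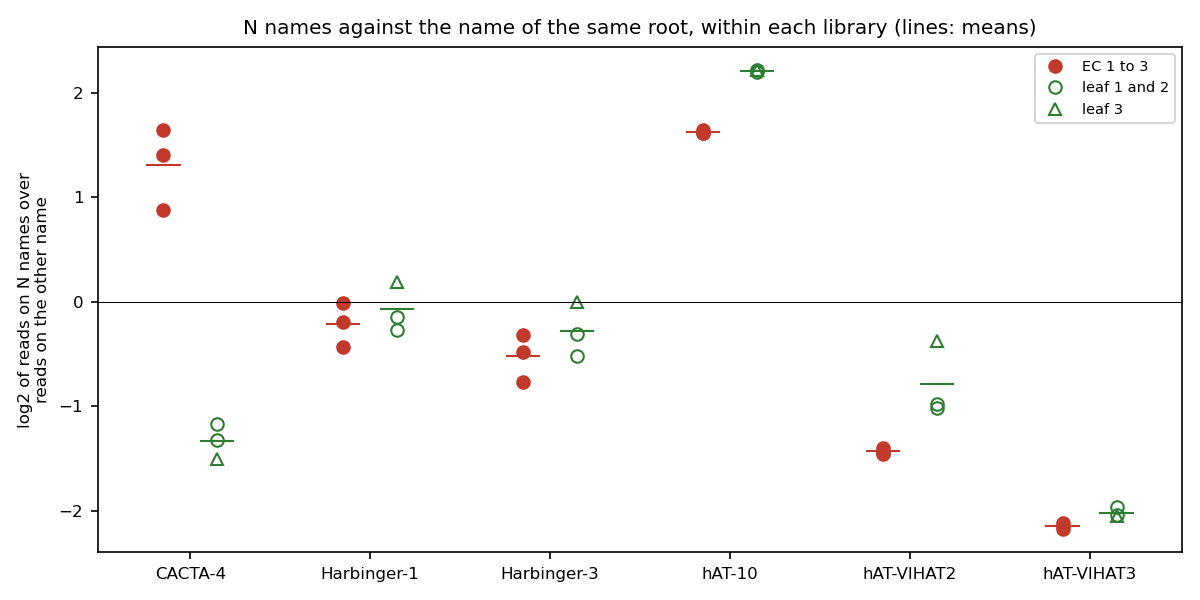
Log2 ratio of reads on N names to reads on the other name of the same root, within each library, for 6 roots. Points are libraries, filled for EC and open for leaf, with leaf replicate 3 as a triangle, and short lines are means. CACTA-4 lies above 0 in EC and below 0 in leaf, the 3 hAT roots lie lower in EC, and both Harbinger roots overlap.

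Summed over families, the superfamilies rose by factors that depended on the denominator. In CPM the ratio of EC to leaf means was 1.47 for CACTA (334 ± 14.7 in EC, 227 ± 31.5 in leaf), 1.53 for hAT (927 ± 25.8 in EC, 604 ± 91.6 in leaf) and 1.75 for Harbinger (643 ± 61.2 in EC, 366 ± 113 in leaf; SD, n = 3 libraries each). In each of them all EC libraries exceeded all leaf libraries. The exact permutation test, two-sided, gave its smallest possible p = 0.1, also after adjustment over 5 sums. Without leaf replicate 3 the ratios were 1.60, 1.68 and 2.13.

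As a share of all TE reads, Harbinger and Helitron-1 were higher in EC in every library, and CACTA and hAT overlapped. Harbinger took 2.31%, 2.46% and 2.63% of all TE reads in EC, against 1.89%, 2.06% and 1.91% in leaf, with no overlap (p = 0.1, exact permutation test, the smallest possible; 0.167 after adjustment over 5 shares). The difference was 0.512 percentage points with all libraries and 0.491 without leaf replicate 3. CACTA took 1.24% to 1.37% in EC and 1.01% to 1.40% in leaf (p = 0.9, exact permutation test), and hAT took 3.55% to 3.58% in EC and 2.73% to 3.71% in leaf (p = 0.7, exact permutation test). All members together took 7.24%, 7.28% and 7.43% in EC, against 6.95%, 6.99% and 5.65% in leaf. The difference was 0.784 percentage points, and 0.345 without leaf replicate 3. Of the 175 tested TE families outside these superfamilies, 56 were higher in EC and 13 in leaf, with a median log2 fold change of 0.52. Without leaf replicate 3 the shares higher in EC were 79.5% of the members and 69.3% of the other TE families. Of the MULE families, another superfamily of DNA transposons, 30 of 40 were tested with all libraries. Of these 16 rose (53.3%) and 2 fell (6.67%) in EC, close to the 56.4% and 5.13% of the members. The median log2 fold change of the MULE families was 0.79. Without leaf replicate 3, 64.5% of the 31 tested MULE families were higher in EC.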

How the data were processed

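RNA-seq counts of 3 EC and 3 leaf libraries were used. The authors trimmed the reads, removed tRNA and rRNA reads, mapped the rest to the PN40024 reference genome with HISAT2, allowing multiple positions, and used TEtranscripts to count genes and TE families in a single run. They deposited raw counts without normalisation, having removed a pair of chloroplast-like genes. Use of the strand in counting is not given in the sources used here. Groups and replicate numbers came from the sample titles. The table had 0 other columns of values.

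All 32075 features were fitted in 1 table with edgeR 4.0.16 in R 4.3.3 (TMM, filterByExpr with a minimum count of 10 and minimum total of 15, glmQLFit with robust estimation, glmQLFTest), with Benjamini-Hochberg adjustment over the 21550 features tested and a threshold of 0.05. Standard errors were derived from the log2 fold change and its F statistic. The code was tested on simulated data. Sums, shares and ratios were compared by exact permutation tests (scipy 1.17.1). Nothing shows that samples of a tissue came from separate cultures or plants, so p-values measure the spread between these samples. The depth limits small families, since 3 counts are 0.124 to 0.229 reads per 1000000.

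Families named were those that passed, those with a shared root, the 3 with the most reads per superfamily, Helitron-1 and those not tested. A name carries N where N, alone or followed by digits and a letter, ends it after a digit or hyphen or as its start. The rule for membership uses names alone, but it, the lists and the other rules were chosen with earlier results of these data known. Alternatives were other scalings, filters, DESeq2 1.42.0, voom of limma 3.58.1, a block for the replicate number, a 2-fold limit, other denominators, name subsets and each library left out. Figures were drawn with matplotlib 3.10.9. Consensus sequences of the families were not used here.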

Additional observations from a re-analysis of the deposited data

How the results depend on the processing

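The count of families higher in EC was 22, and 21 to 31 with library sizes alone, DESeq2 size factors, TMM from genes only, either other filter, DESeq2 or limma-voom. It was 2 with TMM factors from TE families alone, which centre TE families near 0, 5 with a 2-fold limit added, and 9 to 31 with 1 library left out. The count higher in leaf was 2, and 1 with library sizes alone, 4 with TE factors and 1 to 4 with 1 library left out. Of N families 5 were higher in EC, and 12 with library sizes alone, 0 with TE factors, 8 with limma-voom, 0 with the 2-fold limit, 2 among names with a shared root and 0 to 12 with 1 library left out. Of the others 17 were higher, and 19 with library sizes alone, 2 with TE factors and 18 with limma-voom. They numbered 5 with the 2-fold limit, 4 among names with a shared root and 9 to 19 with 1 library left out. Shares of all features called are given above only for the first fit and with 1 library left out. In the other settings a loss of calls over the whole table cannot be told from a loss among these families.

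The median log2 fold change was 0.71, and 1.21 with library sizes alone and 0.15 with TE factors. Ratios of the summed level without TMM factors were 2.24 for all families, 2.05 in CACTA, 2.14 in hAT, 2.51 in Harbinger and 4.96 in Helitron-1, and over all TE reads 1.12, 1.02, 1.07 and 1.26 for the first 4. The difference in the N share was 0.32 percentage points, and −2.33 among names with a shared root, and ran from −1.07 to 2.45 with 1 library left out. In Harbinger it was −0.35 and ran from −1.54 to 1.55. Signs turned for CACTA-4N1 with library sizes alone (0.42), limma-voom (0.067) and without leaf replicate 3 (0.32, the range with 1 library left out being −0.31 to 0.32), for hAT-VIHAT2-N1 without leaf replicate 1 (−0.015) and 2 (−0.11, range −0.11 to 0.28), and with TE factors for Harbinger-3N3B (−0.35), hAT-10N1 (−0.032), hAT-TE-7-1 (−0.084), hAT-VIHAT2-N1 (−0.53), hAT-VIHAT3-N1 (−0.049), CACTA-6 (−0.45), CACTA-8N (−0.28) and CACTA-N3 (−0.075). For hAT-13, at −0.03 with all libraries, the sign turned with library sizes alone (0.31), TMM from genes only (0.011) and the replicate block (0.19). It also turned in 4 of the 6 fits with 1 library left out (range −0.44 to 0.25). Where no cause is named, the cause was not tested.

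A fit with a block for the replicate number tested 39 families. Of these, 16 passed with EC above leaf, among them 2 N families, and 1 passed with leaf above EC. The share of all features that passed is not given for this fit. Fewer calls over the whole table therefore cannot be told from fewer among these families. Same-numbered libraries had correlations of −0.0055, 0.106 and 0.109 in their deviations from the tissue means, so the number alone does not pair them.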
